A study of Mus musculus with 6 samples.

Results

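The Hedgehog pathway genes Dhh, Ptch1, Smo, Gli1, Gli2, Gli3 and Hhip were followed through the cell types of fetal mouse gonads. They were taken by symbol, are 7 of the 26251 genes listed in at least 1 library, and are listed in all 6 libraries. The gonads were collected at E15.5 of embryonic life, and mRNA of single cells was counted with 10x Genomics libraries, 2 for each group. Control XY gonads were testes of Amh+/+; Inhbb+/+ embryos, control XX gonads were ovaries of Amh+/+; Inhbb+/+ embryos, and dKO XY gonads came from Amh-/-; Inhbb-/- XY embryos, which lack anti-Mullerian hormone and the subunit βB of activin B. The gonad pair of an animal was pooled. All groups were dissociated, cryopreserved and thawed before library construction. The filter on cells left 39350 of 68064 barcodes, with 4781 to 8569 cells and 118475468 to 221675316 unique molecular identifiers (UMIs, one per captured transcript) per library. The share of barcodes over the limit on mitochondrial UMIs was 24.4% and 28.3% in the dKO XY libraries and between 2.22% and 9.35% in the control libraries, and its part in the results was not tested. Any 2 libraries had 4 to 25 cell barcodes in common. In supporting cells Amh was at 1978 ± 101 UMIs per 1000000 UMIs of the same cells (CPM; SD, n = 2) in control XY, against 17.1 ± 1.8 for dKO XY. Inhbb was at 174 ± 16 and 46.8 ± 6.3 CPM. Both targeted genes were thus low in the libraries labelled dKO, and whether the counted transcript ends lie outside the deleted parts was not tested. Cells were clustered without the pathway genes and named from markers that hold none of them. All 2-library comparisons measure the spread between these libraries, and a fitted change is a difference of log2 levels between groups (edgeR quasi-likelihood test, called at a Benjamini-Hochberg adjusted p under 0.05).

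Hedgehog ligands act on neighbouring cells. A ligand binds the receptor PTCH1, which otherwise holds the transducer SMO inactive, and SMO signalling changes the GLI transcription factors from repressing to activating forms. Transcription of Ptch1, Gli1 and Hhip is raised by the pathway in many tissues, so their mRNA is widely read as a sign of signalling, and PTCH1 and HHIP in turn bind and limit the ligand. In the fetal testis the ligand is DHH from Sertoli cells, the supporting cells of the cords, and it acts on interstitial cells, from which fetal Leydig cells arise. The comparison asked here was whether target transcripts in interstitial and Leydig cells followed Dhh in supporting cells across the 3 groups.

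The genes lie on separate parts of the genome in the mm10 build (GENCODE M21 positions). Dhh is on chr15:98891152-98898540, Ptch1 on chr13:63508328-63573598, Hhip on chr8:79965851-80058006, Gli1 on chr10:127329882-127341974 and Gli2 on chr1:118834132-119053619, each on the minus strand. Gli3 on chr13:15463235-15730026 and Smo on chr6:29735503-29761365 are on the plus strand. The 250 bases before the RefSeq start of the ligand gene and of 2 targets that were low together in control XX are shown, 5′ to 3′ on the strand of the gene, from the RefSeq table of the GRCm38.p6 assembly, with CG dinucleotides in capitals. The windows are chr15:98898541-98898790 for Dhh, chr13:63565736-63565985 for Ptch1, which starts inside the longer GENCODE gene, and chr8:80058009-80058258 for Hhip.
Dhh: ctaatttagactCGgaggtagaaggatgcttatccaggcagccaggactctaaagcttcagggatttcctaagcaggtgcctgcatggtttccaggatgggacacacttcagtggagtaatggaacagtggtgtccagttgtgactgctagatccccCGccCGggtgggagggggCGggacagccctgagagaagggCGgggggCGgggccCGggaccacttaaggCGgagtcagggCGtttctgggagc
Ptch1: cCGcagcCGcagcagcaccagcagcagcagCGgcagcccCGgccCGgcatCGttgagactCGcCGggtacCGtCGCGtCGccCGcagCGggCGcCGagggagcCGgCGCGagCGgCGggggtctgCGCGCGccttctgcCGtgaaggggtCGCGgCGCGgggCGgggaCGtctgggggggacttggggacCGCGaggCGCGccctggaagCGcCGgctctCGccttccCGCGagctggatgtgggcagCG
Hhip: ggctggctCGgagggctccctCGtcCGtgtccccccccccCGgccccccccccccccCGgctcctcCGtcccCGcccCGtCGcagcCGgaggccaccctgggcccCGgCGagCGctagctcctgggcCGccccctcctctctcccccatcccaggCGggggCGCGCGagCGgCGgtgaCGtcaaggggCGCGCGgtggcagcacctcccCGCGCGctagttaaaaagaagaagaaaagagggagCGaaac
The Dhh window held 9 CG dinucleotides, against 41 in that of Ptch1 and 28 in that of Hhip. The median over the 32851 windows of the table was 6, and the windows of Smo, Gli2 and Gli3 held 15, 22 and 34. Of the 7 genes, 6 have a window in the table, and Gli1 was not matched. The core of the GLI motif, CCACCCA on either strand, was in 8.11% of all windows and in 0 of these 6.

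Dhh, the ligand gene, was carried by supporting cells of XY gonads. Its level was 209 and 197 CPM in the 2 control XY libraries, 146 and 103 CPM in dKO XY, and 0.611 and 0.729 CPM in control XX. Both dKO XY values lay below both control XY values, and the XX values were far below all 4. In XY gonads every other cell type was at 28.7 CPM or less. Between 80.2% and 86.4% of all Dhh UMIs of an XY library came from supporting cells. After each cell was thinned to 5000 UMIs, 58.1% and 59.3% of control XY supporting cells and 39.2% and 33.6% of dKO XY supporting cells held a Dhh UMI. Without thinning these were 86.4% and 88.0% against 64.9% and 61.4%, at median depths of 23063 to 30308.5 UMIs. In immune cells, which should lack the gene, the thinned shares were 0% and 0.885% in control XY and 1.64% and 3.92% in dKO XY, at median depths of 20635 to 24004 UMIs.

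In supporting cells Dhh fell in dKO XY against control XY by 0.70 on the log2 scale (SE 0.16, edgeR quasi-likelihood test, adjusted p = 0.0132), in a comparison where 17.8% of all genes tested were called. It was one of 2 of the 7 genes called there. The call was lost without control XY replicate 1 (log2 fold change -0.66, adjusted p = 0.0656), without control XY replicate 2 (-0.75, adjusted p = 0.0541) and without dKO XY replicate 2 (-0.49, adjusted p = 0.0817), each with the lone library assumed to vary like the rest. Supporting cells below a set level of Sycp3 and Tcf21 were clustered again, and those of the groups fell into different subclusters. The 2 Sertoli-like subclusters, led by Foxq1, Cst9 and Etd and by cell cycle genes, held 654 and 390 cells in the dKO XY libraries. An unnamed subcluster led by Smoc2, Cyp11a1 and Pltp held 435 and 446 dKO XY cells, but 11 and 26 control XY cells. Within Sertoli-like cells Dhh stood at 251 and 234 CPM for control XY, while dKO XY had 241 and 196 CPM, so the groups overlapped. The log2 fold change there was -0.20 (95% interval -0.50 to 0.11, adjusted p = 0.422), in a comparison that called 15.3% of all genes and 0 of the 7 (0 at an unadjusted p under 0.05, and 0 with DESeq2). Leaving out each library gave -0.33 to -0.08. The Smoc2 subcluster was at 24.9 and 22.6 CPM of Dhh in dKO XY. It was counted among supporting cells but given no cell type, and its leading genes include the Leydig markers Cyp11a1 and Cyp17a1. Subclusters could be named only from the Sertoli and granulosa markers. In the clustering of all cells, a cluster named granulosa, led by Krt79, Rhox8, Kctd14 and Rspo1, held 440 and 443 dKO XY cells. It held 14 and 19 control XY cells. The paper describes a feminized group of dKO XY supporting cells, with less Dhh, Sox9 and Cst9 and more of granulosa markers such as Foxl2 and Rspo1. Which cells that group shares with the Smoc2 subcluster or this cluster was not tested. Without the Smoc2 subcluster, an alternative chosen after seeing the data, the change over supporting cells was -0.24 (adjusted p = 0.271). Its cells were seen to be low in Dhh before they were left out. Sertoli-like subclusters were named from markers that run like Dhh, such as Etd and Cst9. Both results were thus partly set by the choice of cells, and no conclusion is drawn from them.

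The 2 Sertoli-like subclusters were read apart for Dhh. In the Foxq1 subcluster it had 256 ± 5 CPM for control XY against 244 ± 33 CPM for dKO XY, and in the cycling subcluster 229 ± 14 against 184 ± 31 CPM (SD, n = 2). The dKO XY cells that lay in the subclusters of control XX cells had little Dhh, 6.54 CPM in the granulosa-like subcluster and 2.18 and 3.96 CPM in the subcluster led by Msx1 and Ramp1. These rest on 2 or 3 UMIs per library.

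Endothelial cells held Dhh UMIs in all 3 groups. They held 7.45 and 7.04 CPM in control XY, against 5.75 and 10.3 CPM for dKO XY and 5.20 and 7.85 CPM for control XX. The 3 groups overlapped, and the log2 fold change of control XX against control XY was -0.13 (95% interval -0.87 to 0.60, adjusted p = 0.888). In control XX, endothelial cells thus had the highest level of all cell types, above supporting cells, with a gap that the libraries did not bridge. Sertoli markers summed to 14.9 to 26.4 CPM in these XX endothelial cells, with up to 3 of 10 at 0, against 103 to 305 CPM in those of XY gonads. Free RNA in the droplets gives UMIs of abundant genes to every cell type, and immune cells had 0.559 and 3.40 CPM of Dhh in control XY, 5.93 and 7.98 CPM in dKO XY and 0 in both control XX libraries, which hold 29 and 52 such cells. In dKO XY the endothelial and immune levels thus overlapped. Interstitial cells had 1.16 and 3.23, 3.40 and 3.40, and 0.0840 and 0.0451 CPM of Dhh, which in XY gonads is near or below the immune level. Leydig cells were at 1.72 and 5.31 CPM for control XY, while dKO XY had 4.03 and 2.997 CPM, and germ cells, with 11.5 and 19.0 CPM in dKO XY, were above immune cells. Immune cells are used here and below as a reference for free RNA, whose level was not estimated. They are not a shared floor. Control XY endothelial cells had less Ptch1 (29.8 and 47.9 against 56.7 and 57.0 CPM) and less Gli1 (1.60 and 4.60 against 7.26 and 6.80 CPM).

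**Figure D1:**
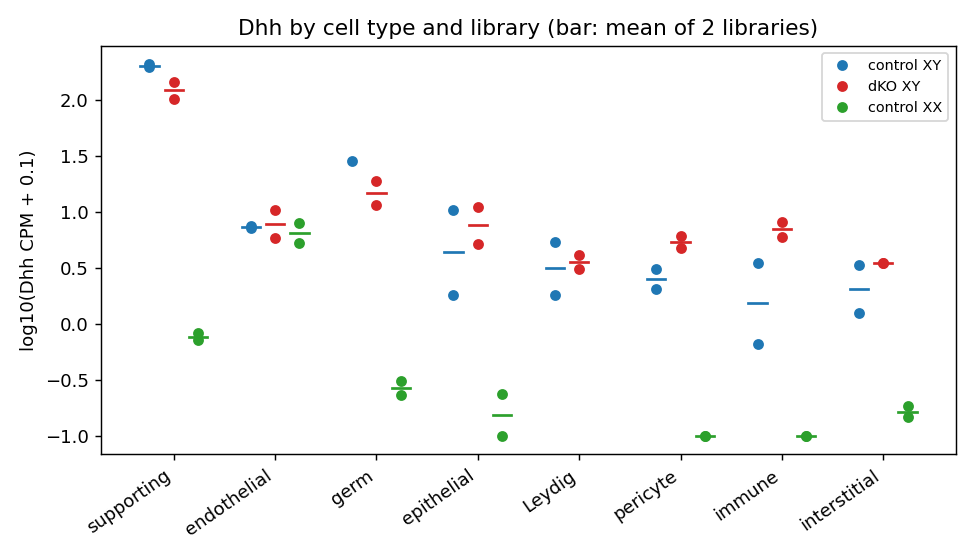
Level of Dhh (log10 of CPM plus a small offset given on the axis) in 8 cell types, with 1 point per library and a bar at the mean of 2 libraries. Supporting cells of control XY (209 and 197 CPM) and dKO XY (146 and 103 CPM) stand above all other cells, and endothelial cells overlap in the 3 groups, between 5.20 and 10.3 CPM.

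The supply of Dhh relative to the cells that could receive it differed from its level per supporting cell. For each 100 interstitial and Leydig cells, the control XY libraries held 4.25 and 7.17 supporting cells and the dKO XY libraries 23.1 and 25.02. Sertoli-like cells alone numbered 3.10 and 5.47 per 100 in control XY, against 11.9 and 10.5 for dKO XY. All cells together held 321 and 517 Dhh UMIs per 1000 interstitial and Leydig cells in control XY, 1117 and 1165 for dKO XY, but 66.1 and 22.3 for control XX. The dKO XY libraries were higher than the control XY libraries by this count and lower by CPM in supporting cells. The counts per cell are not scaled to depth, and the median UMIs of all cells were 20572.5 and 18415 in control XY against 21930 and 27124 for dKO XY. These ratios also move with how well each cell type survived dissociation, freezing and the filter, which cannot be told apart from the makeup of the gonad, and with 2 libraries against 2 an exact permutation test cannot give a p below 0.333.

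Ptch1, the ligand receptor and a target, was highest in interstitial cells of XY gonads. Interstitial cells held 273 and 295 CPM in control XY, against 222 and 227 CPM for dKO XY and 22.9 and 13.4 CPM for control XX. The dKO XY values were below both control XY values, and the XX values were lower than all 4. Between control XX and control XY the log2 fold change was -3.92 (SE 0.21, adjusted p = 9.5e-06), in a comparison that called 24.9% of all genes and 5 of the 7, all lower in control XX. One of the 5 is Dhh, whose interstitial level in XY gonads was near or below that of immune cells, and the part of free RNA was not tested. Markers of other cells moved as well, with 7 of 10 Sertoli markers lower (128 to 226 CPM in sum in control XY, 20.2 to 33.8 CPM in control XX, with up to 2 at 0), 5 of 6 Leydig markers lower (109 to 122 against 4.58 to 6.30 CPM, none at 0) and 8 of 8 granulosa markers higher (33.4 to 49.5 against 214 to 378 CPM, none at 0). Of the 8 interstitial markers 3 were lower and 1 higher. Their part in the falls was not tested. Different clusters hold the interstitial cells of the 2 sexes. In control XX 99.6% and 99.8% were in a cluster led by Il33, Gdf10 and Lum, whereas in control XY 64.8% and 63.3% were in a cluster led by Sostdc1, Inhba and Pdyn and 28.7% and 31.5% in a cycling cluster led by Mki67 and Aspm. Within the Il33 cluster alone Ptch1 was at 109 and 107 CPM in control XY, against 104 and 102 CPM for dKO XY and 22.8 and 13.4 CPM for control XX. The XX libraries were below the XY libraries there too, and how alike the cells of this cluster are in the 2 sexes was not tested.

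For dKO XY against control XY the Ptch1 log2 fold change in interstitial cells was -0.34 (95% interval -0.76 to 0.08, adjusted p = 0.348). That comparison called 6.69% of all genes and 0 of the 7 by edgeR, while 2 of them, Gli1 and Hhip, had an unadjusted p under 0.05 and 2 were called by DESeq2. The 8 interstitial markers summed to 6468 to 6848 CPM in interstitial cells of control XY and to 4507 to 4612 CPM in those of dKO XY, with 4 of 8 lower, and their part in the result was not tested. The shares of the interstitial clusters were not the same in these groups. The Sostdc1 cluster held 64.8% and 63.3% of interstitial cells in control XY, against 48.4% and 42.1% for dKO XY, the cycling cluster held 36.3% and 46.3% in dKO XY, and the Il33 cluster 15.3% and 11.5% against 6.45% and 5.18%. These shares are values without a test. In the Sostdc1 cluster alone Ptch1 stood at 284 and 313 CPM for control XY, whereas dKO XY had 257 and 255 CPM, and in the cycling cluster at 292 and 308 against 234 and 237 CPM. The groups did not overlap in any of the 3 clusters. These clusters come from the same libraries, and the share of all genes without overlap was not counted. Fitted alone, the cycling cluster passed the threshold (-0.33, adjusted p = 0.0388). So did the fit of only the 2 XY groups (-0.34, adjusted p = 0.0483). Leaving out each library gave -0.39 to -0.28, and not every alternative passed.

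Gli1 encodes the GLI factor that is itself a target. Interstitial cells had 45.3 and 50.5 CPM in control XY, against 31.8 and 38.4 CPM for dKO XY and 7.28 and 6.49 CPM for control XX. All 3 groups were apart from each other. The fall in control XX was 2.74 on the log2 scale (SE 0.12, adjusted p = 4.8e-06). The dKO XY difference was -0.45 (SE 0.11, 95% interval -0.71 to -0.20) with an adjusted p of 0.0526, just outside the threshold of 0.05. It passed with DESeq2 (-0.45, adjusted p = 0.0091) and within the Sostdc1 cluster alone (-0.45, adjusted p = 0.0452). Leaving out each library gave -0.58 to -0.34, and the difference did not pass in every alternative. In the Il33 cluster Gli1 had 29.5 and 24.8 CPM for control XY and 22.8 and 30.5 CPM for dKO XY, which overlapped, and 7.33 and 6.49 CPM in control XX. After thinning, 19.6% and 21.8% of interstitial cells held a Gli1 UMI in control XY, 16.0% and 17.0% for dKO XY, and 4.34% and 2.95% for control XX, against 0% to 2.73% of immune cells. Without thinning the interstitial shares were 58.1% and 56.9%, 46.2% and 58.4%, and 13.9% and 11.9%, at median depths of 16347 to 23009.5 UMIs.

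Hhip, which encodes a membrane protein that binds and sequesters the ligand, had a wider gap between the sexes than Ptch1 and Gli1 in interstitial cells. Control XY interstitial cells held 58.5 and 61.9 CPM, and those of dKO XY 39.9 and 47.7 CPM. The 4498 control XX interstitial cells held 1 Hhip UMI in all. Over pooled counts, the control XY level was 6163 times the XX level with a 95% counting interval of 1106 to 243422, and that of dKO XY 4431 times, with an interval of 795 to 175032. The intervals cover counting error only. Between dKO XY and control XY the difference was -0.47 (SE 0.11, 95% interval -0.73 to -0.20) with an adjusted p of 0.0515. It passed with DESeq2 (-0.46, adjusted p = 0.0058) and in the cycling cluster alone (-0.51, adjusted p = 0.0178). Leaving out each library gave -0.58 to -0.36, and the difference did not pass in every alternative. By cluster Hhip was at 60.6 ± 2.0 CPM in the Sostdc1 cluster of control XY and 51.6 ± 6.9 in that of dKO XY, at 69.4 ± 2.5 and 48.0 ± 4.4 in the cycling cluster, and at 13.5 ± 0.9 and 7.68 ± 2.59 in the Il33 cluster (SD, n = 2).

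**Figure D2:**
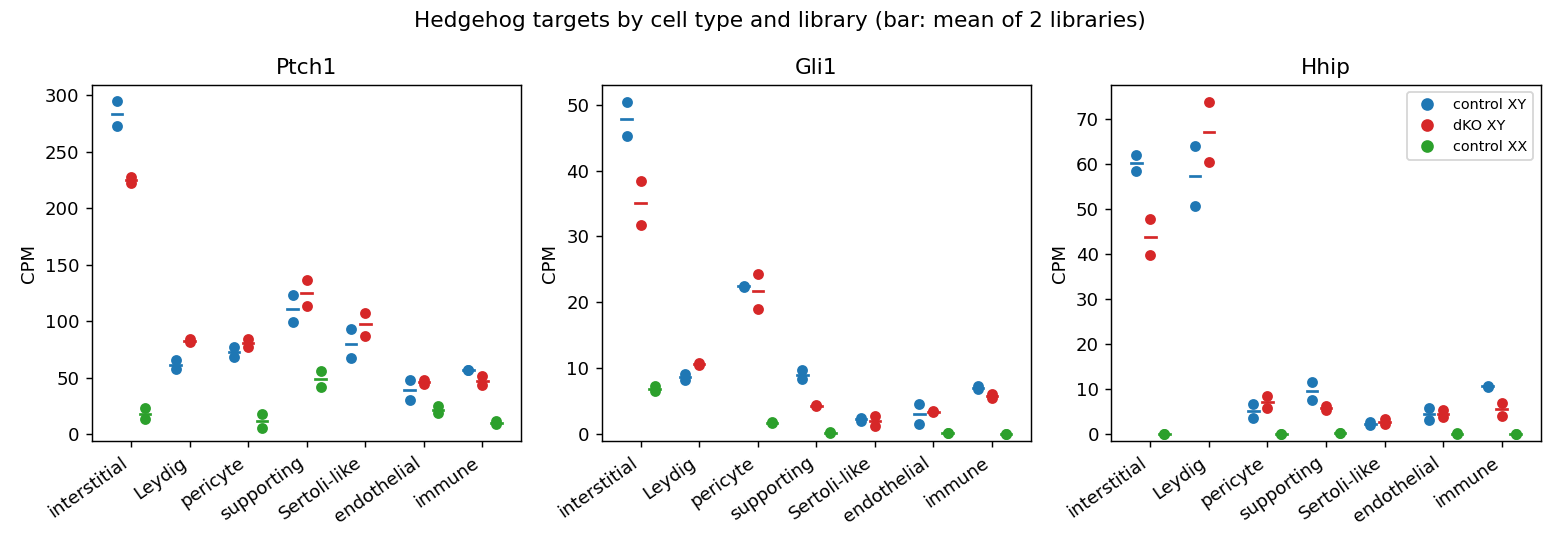
CPM of Ptch1, Gli1 and Hhip, 1 panel each, in 7 cell types, with 1 point per library and a bar at the mean of 2 libraries. Interstitial cells of dKO XY lie between control XY and control XX for the 3 genes, and Leydig cells carry Hhip at levels near or above those of interstitial cells. Immune cells are shown as a reference for free RNA, whose level was not estimated.

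Leydig cells, which make androgen and are found in the XY libraries, were read in the same way. The 6 Leydig markers summed to 29919 to 31246 CPM in control XY Leydig cells and 21496 to 21745 CPM in those of dKO XY, with 3 of 6 lower. Ptch1 stood at 57.4 and 65.3 CPM for control XY, whereas dKO XY had 81.2 and 84.3 CPM, without overlap. It rose by 0.40 on the log2 scale (SE 0.09, adjusted p = 0.0398), where 8.04% of all genes and 1 of the 7 were called. The call was lost with thinned counts (0.32, adjusted p = 0.178) and when clusters were made from variable genes with the pathway genes kept in (0.34, adjusted p = 0.0771). It was also lost without control XY replicate 1 (0.32, adjusted p = 0.420) and without control XY replicate 2 (0.49, adjusted p = 0.0880). In control XY the Ptch1 level of Leydig cells was close to that of immune cells, at 56.7 and 57.0 CPM, while in dKO XY immune cells were at 51.2 and 43.4 CPM, below both Leydig values. The 8 interstitial markers summed to 1006 to 1048 CPM in Leydig cells of control XY and 835 to 850 CPM in those of dKO XY, with none at 0, and 2 of the 8 fell. The same markers were also lower in the interstitial cells of dKO XY, and the part of free RNA in the result was not tested.

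Gli1 in Leydig cells stood at 8.26 and 9.11 CPM for control XY, whereas dKO XY had 10.5 and 10.7 CPM (log2 fold change 0.26, 95% interval -0.02 to 0.55, adjusted p = 0.2497), against 5.55 to 7.26 CPM in immune cells. Gli2 was at 3.89 and 4.49 against 5.20 and 6.97 CPM (0.51, 95% interval 0.08 to 0.94, adjusted p = 0.146), near the 3.44 to 6.24 CPM of immune cells of XY gonads. Without the cells of highest doublet score both were called, Gli1 at 0.63 (adjusted p = 0.0235) and Gli2 at 1.09 (adjusted p = 0.0123). Hhip in Leydig cells, by contrast, was well above its level in immune cells. It was at 64.1 and 50.8 CPM for control XY, while dKO XY had 73.9 and 60.4 CPM, which overlapped (0.20, 95% interval -0.14 to 0.54, adjusted p = 0.475). Leaving out each library gave 0.02 to 0.38 for Hhip. Relative to the interstitial cells of the same library, Leydig cells had 109.5% and 82.0% of the Hhip level in control XY, against 185% and 127% for dKO XY, but 21.1% and 22.1% and then 36.6% and 37.1% of the Ptch1 level. Immune cells had 19.1% to 23.1% of the interstitial Ptch1 level in the XY libraries.

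The difference between both cell types was tested as an interaction, with the library as a term. Of all genes 11.1% were called, and of the 7 genes 3, all with a higher dKO XY effect in Leydig cells than in interstitial cells. The effect differed by 0.72 on the log2 scale for Ptch1 (SE 0.05, adjusted p = 0.00025), 0.69 for Gli1 (SE 0.10, adjusted p = 0.0043) and 0.66 for Gli2 (SE 0.10, adjusted p = 0.0044). Without control XY replicate 2 the calls of Gli1 (0.71, adjusted p = 0.0531) and Gli2 (0.65, adjusted p = 0.0653) were lost. For Hhip the difference was 0.65 (SE 0.18, adjusted p = 0.0554), for Gli3 0.14 (adjusted p = 0.404) and for Smo 0.05 (adjusted p = 0.697). In the same test 3 of the 8 interstitial markers were called higher and 0 lower, and 4 of the 6 Leydig markers lower and 0 higher. Their part in the differences was not tested. The difference for Dhh was -0.68 (SE 0.21, adjusted p = 0.0734). Its levels in both cell types overlapped those of immune cells in control XY and lay below them in dKO XY.

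**Figure D3:**
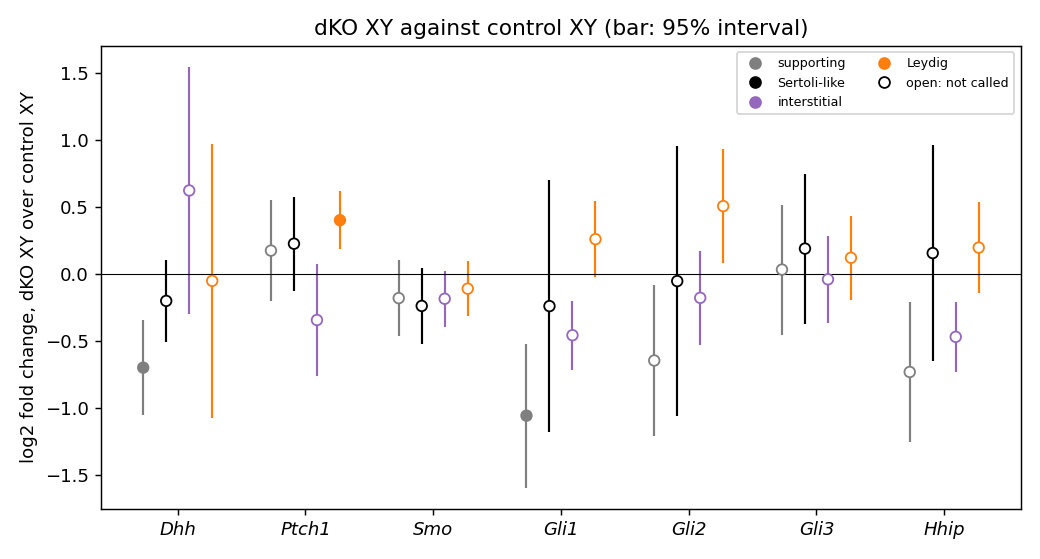
Log2 fold change of dKO XY over control XY for the 7 genes in supporting, Sertoli-like, interstitial and Leydig cells, with the 95% interval as a bar and filled points for calls at an adjusted p under 0.05. The called points are Dhh (-0.70) and Gli1 (-1.06) in supporting cells and Ptch1 (0.40) in Leydig cells, and the interstitial points of Ptch1, Gli1 and Hhip lie below 0.

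Smo, which encodes the transducer, had no call between the groups. In interstitial cells it was at 101 and 102 CPM in control XY, against 83.9 and 95.7 CPM for dKO XY and 102 and 90.6 CPM for control XX. The log2 fold changes were -0.18 for dKO XY against control XY (95% interval -0.39 to 0.03, adjusted p = 0.317) and -0.02 for control XX against control XY (95% interval -0.23 to 0.19, adjusted p = 0.916). Epithelial and interstitial cells had the highest levels in all 3 groups, with overlap of the pair in control XX alone. Smo was not called in any comparison of the cell types tested.

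Gli2 and Gli3 encode the GLI factors that are changed by the signal rather than made in response to it. Gli2 was highest in interstitial cells, at 27.3 and 32.6 CPM in control XY, against 22.7 and 30.7 CPM for dKO XY and 17.1 and 14.4 CPM for control XX. It fell in control XX against control XY by 0.87 on the log2 scale (SE 0.16, adjusted p = 0.0046), but within the Il33 cluster alone the change was -0.52 (adjusted p = 0.0736). Gli3, the main repressor of the family, stood at 26.7 and 31.9 CPM in control XY interstitial cells, 25.4 and 32.0 CPM in those of dKO XY and 38.9 and 30.9 CPM in those of control XX. These overlapped, and the XX difference was 0.31 (95% interval -0.02 to 0.64, adjusted p = 0.157). With counts thinned to 5000 UMIs a cell that difference was 0.61 (adjusted p = 0.0113). In control XY the order for Gli3 ran from interstitial, epithelial and pericyte cells, which overlapped, to Leydig and immune cells.

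Supporting cells carried the receptor as well as the ligand. Ptch1 was at 99.6 and 123 CPM in supporting cells of control XY, 136 and 114 CPM in those of dKO XY and 56.2 and 41.9 CPM in those of control XX, where they had the highest level of all cell types. It fell in control XX against control XY by 1.23 on the log2 scale (SE 0.17, adjusted p = 0.00021), where 49.1% of all genes and 5 of the 7 were called, all lower. The interstitial markers, at 963 to 1056 CPM in supporting cells of control XY and 402 to 582 CPM in those of control XX, were lower for 6 of 8, and Ptch1 in immune cells was at 56.7 and 57.0 against 11.6 and 8.78 CPM. Their part in the fall of Ptch1 was not tested. Gli1, by contrast, was at 2.03 and 2.40 CPM in Sertoli-like cells of control XY and 2.71 and 1.15 CPM in those of dKO XY, below the 5.55 to 7.26 CPM of immune cells in XY gonads. Over all supporting cells Gli1 fell in dKO XY by 1.06 on the log2 scale (SE 0.24, adjusted p = 0.0135), from 8.30 and 9.67 to 4.28 and 4.35 CPM. The 8 interstitial markers moved with it in supporting cells, from 963 to 1056 CPM in control XY to 429 to 513 CPM in dKO XY, with 4 of 8 lower and none at 0. Without the cells at or above a set level of Sycp3 or Tcf21, the Gli1 change was 0.09 (adjusted p = 0.883). In Sertoli-like cells it was -0.24 (adjusted p = 0.799), with -0.97 to 0.20 over the left-out libraries. The call was also lost with clusters made at a resolution of 0.5 (-0.04, adjusted p = 0.952), without the cells of highest doublet score (-0.89, adjusted p = 0.0778) and without control XY replicate 2 (-0.94, adjusted p = 0.131). The part of interstitial RNA or cells in this change was not tested. Hhip was at 7.56 and 11.5 CPM in supporting cells of control XY and 6.32 and 5.30 CPM in dKO XY. Immune cells had 10.6 and 10.6 CPM in control XY and 4.01 and 6.94 CPM in dKO XY, so the cell types overlapped within each group.

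Pericytes, the contractile cells around vessels, carried Gli1 in XY gonads. They held 22.4 and 22.4 CPM in control XY, against 18.9 and 24.4 CPM for dKO XY and 1.66 and 1.81 CPM for control XX. The XY levels were above those of immune cells, whereas the XX immune cells had 0 UMIs, which allows up to 5.33 and 3.24 CPM. Gli1 fell in control XX against control XY by 3.58 on the log2 scale (SE 0.37, adjusted p = 3.1e-05), where 7.74% of all genes and 4 of the 7 were called, all lower. Ptch1 fell by 2.85 (SE 0.29, adjusted p = 3.3e-05), from 68.2 and 77.2 to 17.5 and 5.81 CPM. Markers of other cells were also lower in the XX pericytes. The 8 interstitial markers summed to 2367 to 2531 CPM in control XY and 1134 to 1360 CPM in control XX, with 5 of 8 lower and at most 1 at 0, and of the Sertoli and Leydig markers 6 of 8 tested and 4 of 6 were lower. Their part in the falls was not tested. Hhip had 3.48 and 6.79 CPM in pericytes of control XY but 0 UMIs in both XX libraries, and was at least 7.12-fold higher in control XY, against a floor of 3 counts over the XX group. The pericyte level was below that of immune cells (10.6 and 10.6 CPM), and the call was lost without control XX replicate 2 (adjusted p = 0.139) and without the cells of highest doublet score (adjusted p = 0.0615). Dhh, the fourth call, was at 1.96 and 3.0003 CPM in control XY pericytes, near its level in immune cells, and at 0 UMIs in both XX libraries. Its call was lost with DESeq2 (adjusted p = 0.0684), which thus called 3 of the 7, and without control XX replicate 1 (adjusted p = 0.0588), control XX replicate 2 (adjusted p = 0.265) or control XY replicate 2 (adjusted p = 0.118). In endothelial cells 4.80% of all genes and 2 of the 7, Gli1 and Hhip, were called lower in control XX. Their control XY levels of 1.60 to 5.89 CPM were below those of immune cells, and interstitial markers summed to 333 to 594 CPM in endothelial cells of control XY and 72.4 to 207 CPM in those of control XX. The endothelial Gli1 call was lost without control XX replicate 1 (-3.89, adjusted p = 0.0958) and without control XY replicate 2 (-3.21, adjusted p = 0.256). Ptch1 was just outside the threshold there (-0.81, adjusted p = 0.0526) and inside it in 6 alternatives, among them the fit of these 2 groups alone (-0.81, adjusted p = 0.0390). Leaving out each library gave -1.09 to -0.39 for Ptch1. Between dKO XY and control XY 0 of the 7 genes were called in pericytes (0.283% of all genes, 1 of the 7 at an unadjusted p under 0.05, 0 with DESeq2) and 0 in endothelial cells (0.523% of all genes, 0 at an unadjusted p under 0.05, 0 with DESeq2).

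Between dKO XY and control XX the members called in the main fits were all higher in dKO XY. Gli3 in interstitial cells, not called there, ranged from -0.50 to -0.21 on the log2 scale over the left-out libraries. In supporting cells 40.6% of all genes were called and 5 of the 7 genes were higher in dKO XY, with Dhh higher by 7.63 on the log2 scale and Gli1 by 4.50. The Gli1 level of dKO XY supporting cells (4.28 and 4.35 CPM) was below that of dKO XY immune cells (6.12 and 5.55 CPM). The interstitial markers, at 429 to 513 CPM in supporting cells of dKO XY and 402 to 582 CPM in those of control XX, were higher for 3 of 8 and lower for 1, and the Leydig markers, at 220 to 259 CPM against 75.2 to 88.6 CPM, were higher for 4 of the 5 tested. Their part in the difference was not tested. Interstitial cells had 26.4% of all genes called and 5 of the 7 higher, with log2 fold changes of 3.58 for Ptch1, 2.28 for Gli1 and 0.69 for Gli2. One of the 5 is Dhh, whose level in dKO XY interstitial cells was below that of dKO XY immune cells, and the part of free RNA was not tested. The Gli2 call was lost within the Il33 cluster alone (0.12, adjusted p = 0.742), without control XX replicate 2 (0.62, adjusted p = 0.0866) and without dKO XY replicate 2 (0.48, adjusted p = 0.0571). The calls for pericytes were 6.52% of all genes and 4 of the 7, and those for endothelial cells 2.95% and 3 of the 7. The pericyte calls include Dhh and Hhip, whose levels in XY pericytes were near or below those of immune cells, and endothelial Dhh was not called. In dKO XY, endothelial Gli1 (3.43 and 3.39 CPM) was below the immune level. Endothelial Hhip (5.28 and 3.74 CPM) and Ptch1 (44.7 and 47.8 CPM) overlapped the levels of immune cells (4.01 and 6.94, and 51.2 and 43.4 CPM). Without control XX replicate 2 the pericyte calls of Dhh (adjusted p = 0.107) and Hhip (adjusted p = 0.0969) and the endothelial call of Ptch1 (adjusted p = 0.1005) were lost. The endothelial call of Gli1 was lost without control XX replicate 1 (adjusted p = 0.115), and that of Ptch1 also without the cells of highest doublet score (0.72, adjusted p = 0.0847). These comparisons share libraries with those above.

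Read side by side, Dhh and the targets did not keep 1 order across the groups. Control XX, with the least Dhh by either measure, had the lowest Ptch1, Gli1 and Hhip in interstitial cells. Control XY and dKO XY changed places with the measure. By Dhh CPM in supporting cells, dKO XY was lower (146 and 103 against 209 and 197), as were interstitial Ptch1, Gli1 and Hhip in every dKO XY library. Leydig Ptch1 went the other way, and in Sertoli-like cells the groups overlapped for Dhh. In interstitial cells edgeR called 0 of the 7 genes and 6.69% of all genes, and the share of all genes without overlap was not counted. By Dhh UMIs per 1000 interstitial and Leydig cells, dKO XY was higher (1117 and 1165 against 321 and 517), as was Ptch1 in Leydig cells. The interstitial targets went against this measure. The 6 libraries form separate XX and XY clusters, so no correlation of targets with Dhh is given over the 6 libraries, and whether the targets depend on Dhh was not tested.

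**Figure D4:**
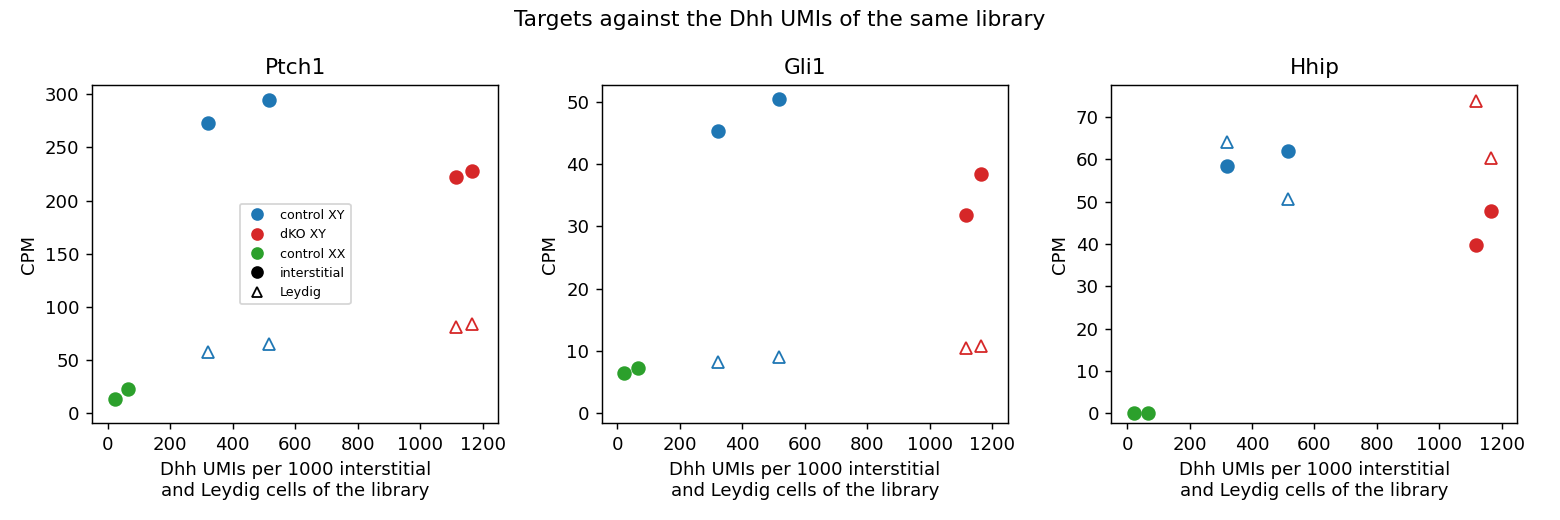
CPM of Ptch1, Gli1 and Hhip in interstitial cells (circles) and Leydig cells (open triangles) against the Dhh UMIs per 1000 interstitial and Leydig cells of the same library. The control XX libraries lie at the lower left (22.3 and 66.1 Dhh UMIs), and the dKO XY libraries lie farthest right with interstitial levels below those of control XY.

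Among the other ligands, Ihh was near 0, at 0.128 CPM or less in supporting, interstitial and Leydig cells of all libraries. Shh was found in Leydig cells, at 14.6 and 10.4 CPM for control XY, while dKO XY had 23.6 and 21.9 CPM. It rose there by 0.84 on the log2 scale (SE 0.17, adjusted p = 0.0230). Immune cells held 0 to 1.34 CPM of Shh, and interstitial cells at most 0.198 CPM.

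A wider list of 34 genes with known roles in the pathway was read in the same fits, of which Grk2 is not listed under that name. In supporting cells 28 of the 34 were tested, of which 9 rose and 1 fell in dKO XY against control XY (median log2 fold change 0.25, against 0.02 over all genes, of which 17.8% were called). Co-receptor genes were among those that rose, over supporting cells whose subclusters differed between the groups. Of the receptor and co-receptor genes tested, 4 of 4 rose in supporting cells and 2 of 4 in Sertoli-like cells. Gas1 and Boc, which help PTCH1 bind ligand, went from 43.6 and 42.6 to 82.3 and 56.1 CPM and from 4.83 and 5.57 to 11.01 and 11.6 CPM. Cdon, a co-receptor of the same kind, went from 12.5 and 13.2 to 25.9 and 34.4 CPM. Gas1, Boc and Cdon were also higher in control XX than in control XY, with Gas1 at 438 and 352 CPM and Boc at 49.7 and 47.1 CPM in XX. Scube2 and Scube3, which help release ligand, rose in dKO XY by 3.54 and 2.63 on the log2 scale, from levels of 0.256 CPM or less and of 1.34 and 1.86 CPM. None of the 12 transducers tested was called by edgeR in this comparison.

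Within Sertoli-like cells 26 of the 34 were tested, and 6 rose and 1 fell in dKO XY, where 15.3% of all genes were called. Ccnd1, which encodes cyclin D1, rose by 4.53 on the log2 scale (SE 0.28, adjusted p = 1.2e-06), from 4.41 and 2.31 to 61.1 and 85.8 CPM. Bcl2, which encodes an inhibitor of apoptosis, rose by 1.72 (SE 0.14), and Bmp4, Cdon and Scube3 also rose. Prkaca, which encodes a catalytic subunit of protein kinase A, fell by 0.65 (SE 0.17).

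In interstitial cells 31 of the 34 were tested against control XY, and 3 rose and 2 fell in dKO XY (median log2 fold change -0.11), where 6.69% of all genes were called. Of the genes known as targets elsewhere, Bcl2 fell by 0.57 (SE 0.13) while Ccnd1, Mycn and Bmp4 rose by 1.84, 0.80 and 0.81. These 8 listed targets thus held called genes of both directions. Between control XX and control XY 6 of the 31 were higher and 7 lower, where 24.9% of all genes were called, with Gas1 higher by 1.49 and Scube2 by 3.09, and Bmp4 lower by 1.06. In Leydig cells, where 8.04% of all genes were called, 27 were tested, of which Shh, Ccnd1 (2.94, SE 0.17) and Mycn (1.28, SE 0.15) rose and Bmp4 fell by 0.48 (SE 0.11).

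Genes whose levels ran most like those of 4 members over 41 sums of a library and cell type were found among 10938 genes, as a description with no test. The sums share libraries and cells, and each correlation is Pearson's r of log2 CPM. For Dhh these were Bricd5 (0.92), Etd (0.88), Hsd17b3 (0.87), Cst9 (0.87) and RP23-250M11.3 (0.85), of which Etd and Cst9 are markers used to name Sertoli-like cells. Ptch1 ran most like Pdyn (0.90), Tacr3 (0.86), Osr2 (0.83), Hhip (0.82) and Actr3b (0.81). Gli1 ran most like Figf (0.93), Hsd11b2 (0.92), Rprml (0.92), C1qtnf3 (0.91) and Fam19a2 (0.91), and Hhip most like Prokr2 (0.96), Cbln1 (0.94), Pdyn (0.91), Gsta2 (0.91) and C7 (0.88). Pdyn was thus in the lists of both Ptch1 and Hhip.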

How the data were processed

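For each library the authors deposited a matrix of raw UMI counts (genes by cell barcodes) from Cell Ranger on the mm10 genome with a correction for barcode swapping. The submitters' processing notes also name Seurat 4.0. Barcodes with over 2500 and under 9000 genes, under 25% mitochondrial UMIs and under 20% Hbb UMIs were kept, as in the study. Cells were clustered with Seurat 5.3.0 in R 4.3.3 on 3000 variable genes less the 12 that are among the 41 pathway genes (20 dimensions, resolution 0.21; supporting cells 8 dimensions, 0.25). Clusters were named from fixed markers, of which at least 3 had to be in 10% of cells and 1.5-fold up. Raw counts were summed per library and cell type with at least 10 cells, with CPM taken over all UMIs of the sum, and tested over all genes with edgeR 4.0.16 (filterByExpr, TMM, quasi-likelihood test, Benjamini-Hochberg adjustment), with DESeq2 1.42.0 as an alternative. The scripts were tested on simulated data.

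Doublets stayed in. The Scrublet threshold marked 0 to 129 cells per library and had not worked in most, so an alternative left out the cells with the highest scores in each library, about 8% (7.09% to 8.01%). Shares of cells were also taken after thinning each cell to 5000 UMIs. Intervals and floors of counts are 95% and cover counting error only. Other alternatives were no filter on low counts, other clusterings, fits of 2 groups, single interstitial clusters, each library left out, and a block on the replicate number. The named genes were the 7 members, the called genes of the wider list with the ligands Shh and Ihh, the 5 genes most like Dhh, Ptch1, Gli1 and Hhip (sums of at least 50 cells, genes of at least 20 CPM, prior count 2), and the targeted genes Amh and Inhbb. The members and lists were chosen with earlier results of these data known. Values of 1 gene of the wider list are not reported here.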

Additional observations from a re-analysis of the deposited data

Results flagged for a closer look

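The effect of the dKO XY genotype differed between Leydig and interstitial cells for 3 genes, by a test of the difference itself. For Ptch1 the effect in Leydig cells was higher by 0.72 on the log2 scale, for Gli1 by 0.69 and for Gli2 by 0.66. In the same test 3 of 8 interstitial markers were called higher and 4 of 6 Leydig markers lower, and their part was not tested. In control XY the Ptch1 level of Leydig cells (57.4 and 65.3 CPM) was near that of immune cells (56.7 and 57.0 CPM). The Gli2 levels of Leydig and immune cells overlapped in both XY groups, whereas Gli1 was higher in Leydig cells without overlap (8.26 and 9.11 against 7.26 and 6.80 CPM in control XY, 10.5 and 10.7 against 6.12 and 5.55 CPM in dKO XY). Leaving out control XY replicate 2 gave 0.71 for Gli1 (edgeR, adjusted p = 0.0531) and 0.65 for Gli2 (adjusted p = 0.0653).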

How the results depend on the processing

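Of the results recomputed, most kept their side of the threshold of 0.05 (edgeR or DESeq2, adjusted p). A change of direction was counted only where the main fit or the alternative was called. Exceptions for dKO XY against control XY, as log2 fold changes, follow, and the cause was not tested. In supporting cells Dhh lost its call without the Smoc2 subcluster (-0.24), and leaving out each library gave -0.95 to -0.49. Gli1 there reversed to 0.086 without cells at or above a set level of Sycp3 or Tcf21. Hhip there gained a call with all variable genes (-0.89), with no filter (-0.71), without the Smoc2 subcluster (-0.95) and without control XY replicate 1 (-0.99). In interstitial cells Gli1 gained a call with DESeq2 (-0.45), with no filter on low counts (-0.45), in the Sostdc1 cluster alone (-0.45), with all 3000 variable genes (-0.47) and without dKO XY replicate 2 (-0.58), with -0.58 to -0.34 over the left-out libraries. Hhip gained one with DESeq2 (-0.46), with no filter (-0.47), with 2 groups (-0.46), with thinned counts (-0.44), in the cycling cluster alone (-0.51) and without either control XX library (-0.47 for each), with -0.58 to -0.36 over the left-out libraries. Ptch1 gained one in the cycling cluster alone (-0.33), with 2 groups (-0.34) and without either control XX library (-0.34 for each), with -0.39 to -0.28 over the left-out libraries, and Dhh gained one without control XY replicate 2 (1.55). In Leydig cells Ptch1 lost its call with all variable genes (0.34) and thinned counts (0.32), with 0.32 to 0.49 over the left-out libraries. Gli1 and Gli2 gained one there without the cells of highest doublet score (0.63 and 1.09), and Gli2 also without dKO XY replicate 1 (0.68). Over the left-out libraries Gli2 there ranged from 0.30 to 0.68. Dhh in Leydig cells ranged from -0.63 to 0.99, the latter without control XY replicate 2. Its Leydig levels overlapped those of immune cells in control XY and lay below them in dKO XY. For the difference between Leydig and interstitial effects, Hhip gained a call with no filter (0.66), without control XY replicate 1 (0.86), without dKO XY replicate 1 (0.41) and without dKO XY replicate 2 (0.94), Gli1 ranged from 0.61 to 0.84, and Dhh gained a call with no filter (-0.67), without dKO XY replicate 1 (-0.86) and without the cells of highest doublet score (-0.79).

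Counts of all genes called moved by over 1.5 times in several settings. With no filter on low counts, the dKO XY against control XY calls went from 1130 to 1764 in interstitial cells, 1180 to 2419 in Leydig cells, 63 to 374 in endothelial cells and 34 to 212 in pericytes, the endothelial XX calls from 579 to 1120 against control XY and 356 to 892 against dKO XY, and those of pericytes against dKO XY from 782 to 1214. In the Il33 cluster alone, interstitial calls went from 4206 to 1872, 4466 to 1932 and 1130 to 23 (control XX against control XY, dKO XY against control XX, dKO XY against control XY). Thinned counts, with fewer genes tested, gave 4889 calls against 7796, 4015 against 6438 and 1296 against 2822 in supporting cells, in the same order of comparisons, and 470 against 1180 in Leydig cells. Without the cells of highest doublet score the dKO XY against control XY calls were 97 in endothelial cells and 9 in pericytes. Without control XY replicate 2 the calls for dKO XY against control XY fell to 1241 in supporting, 429 in interstitial and 1247 (from 2081) in Sertoli-like cells, and those of the interaction from 1846 to 587.

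The labels do not say whether same-numbered libraries belong together. Deviations of same-numbered libraries correlated at 0.03 to 0.15 between control XY and dKO XY and at -0.21 to 0.03 with control XX. Whether the numbers mark a shared batch was not tested. A replicate block changed 1 of 98 calls, Gli2 in Leydig cells (0.50, adjusted p = 0.0418), and moved the calls of all genes from 1180 to 2640 in Leydig cells and from 1130 to 711 in interstitial cells. With the control XX numbers crossed, chosen after seeing the data, the block gave 2084 calls for dKO XY against control XY in interstitial cells, 2 of them members (Gli1 -0.46, Hhip -0.47), 98 in endothelial cells and 75 in pericytes.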

Other observations

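Cdon, a co-receptor gene, had 82.5 and 89.5 CPM in Leydig cells of control XY, against 71.4 and 108 CPM for dKO XY. In interstitial cells its level was 21.3 and 22.4 against 23.4 and 29.99 CPM. These values are a description.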
